A study of Mus musculus with 19 samples.

Results

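Hyaluronan synthesis, binding and breakdown was followed through 9 genes: the synthases Has1, Has2 and Has3, the receptor Cd44, the hyaluronidases Hyal1 and Hyal2, and the matrix proteins Tnfaip6, Ptx3 and Vcan. They were found by symbol among the 23846 gene entries of the deposited table, each once, and all 9 passed the filter that left 14043 genes for testing. The set was selected on these data, because Has1 and Ptx3 had been seen to be far higher in the Sca1+ fraction, so the levels in that fraction are given as a description without a test. Muscle cells of 8-week-old C57BL/6J mice were profiled by poly(A) RNA sequencing in 19 libraries. All animals of all groups had received 2.5 mg tamoxifen a day for 5 days and a washout of 10 days, and the labels name no transgene or Cre allele. LinPos (4 libraries) is the sorted lineage-positive fraction, which the labels describe as endothelial and blood-derived cells, and LinNeg (4 libraries) is the remainder. LinNeg was sorted further by the surface protein Sca1, the product of Ly6a, into LinNegSca1Neg (4 libraries) and LinNegSca1Pos (3 libraries), the latter called a mesenchymal progenitor fraction. Whole (4 libraries) is titled a suspension of mononuclear cells but is called whole muscle elsewhere in the labels, and which was sequenced is not settled here. Whether replicates are separate animals is not stated in the labels. The p values therefore reflect the spread among these libraries alone, and that spread may be technical.

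Hyaluronan is a long unbranched sugar chain of alternating glucuronic acid and N-acetylglucosamine. The Has enzymes, which sit in the plasma membrane, join the nucleotide sugars and push the chain out of the cell. Outside, it is held by receptors such as Cd44 and by matrix proteins such as versican, and it is cut by hyaluronidases. Tnfaip6, a protein induced by inflammatory signals, moves heavy chains of the inter-alpha-trypsin inhibitor family onto hyaluronan, and the pentraxin Ptx3 binds these modified chains and crosslinks them. In skeletal muscle hyaluronan lies in the connective tissue between and around the fibres.

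Promoter sequence is shown for the 3 genes that stood highest above the Sca1- fraction or at the highest level in the Sca1+ fraction, Has1, Ptx3 and Tnfaip6. RefSeq promoters (GRCm38.p6) were matched by symbol for 7 of the 9 members, all but Has2 and Has3. The stretches run 5′ to 3′ from 150 bases before the start site to 30 bases from it on, at chr17:17855159-17855338 (minus strand) for Has1, chr3:66219737-66219916 (plus strand) for Ptx3 and chr2:52037963-52038142 (plus strand) for Tnfaip6. Capitals mark a cyclic AMP response element in Has1, overlapping NF-kB consensus matches in Ptx3 and an AP-1 match in Tnfaip6.
Has1: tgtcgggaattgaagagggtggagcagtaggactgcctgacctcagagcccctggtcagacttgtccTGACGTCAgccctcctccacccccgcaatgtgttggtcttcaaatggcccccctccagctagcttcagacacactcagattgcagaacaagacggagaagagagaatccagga
Ptx3: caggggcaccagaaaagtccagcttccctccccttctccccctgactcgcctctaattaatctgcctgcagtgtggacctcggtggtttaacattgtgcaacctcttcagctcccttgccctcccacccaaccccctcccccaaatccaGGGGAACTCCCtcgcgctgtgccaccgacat
Tnfaip6: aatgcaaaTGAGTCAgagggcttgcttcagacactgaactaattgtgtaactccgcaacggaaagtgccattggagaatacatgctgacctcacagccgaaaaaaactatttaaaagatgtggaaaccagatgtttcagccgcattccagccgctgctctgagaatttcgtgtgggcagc
The motifs searched on both strands were AP-1 (TGANTCA), the cyclic AMP response element (TGACGTCA) and the NF-kB consensus. In the full window of 250 bases before to 50 bases after the start, Has1 held its element with its first base 83 bases before the start, and 1.79% of the 32851 RefSeq promoters held one. Tnfaip6 held its AP-1 match with the first base 142 bases before the start, against a share of 7.81% of all promoters. The Ptx3 matches began at the last base before the start and at the start itself, and another NF-kB match began 238 bases before the start of Hyal2, against a share of 8.46%. The windows of Cd44, Hyal1 and Vcan held none of these letters. A match is a run of letters and was not tested as a binding site.

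The labelled fractions carried their defining genes. Levels are in FPKM, a measure scaled for transcript length and library size, as mean ± SD over n = 4 libraries, or n = 3 for LinNegSca1Pos. Pecam1, an endothelial adhesion protein, was at 303 ± 96.0 FPKM in LinPos and 5.24 ± 1.39 FPKM in LinNeg, and Ptprc, the leukocyte protein CD45, at 131 ± 40.3 and 1.38 ± 1.19 FPKM. Ly6a was at 1765 ± 264 FPKM in LinNegSca1Pos and 51.7 ± 12.3 FPKM in LinNegSca1Neg, and Pdgfra, a marker of mesenchymal progenitors, at 101 ± 15.8 and 7.20 ± 0.505 FPKM. The summed level of 6 myofibre genes was 62015 to 78324 FPKM in Whole and 2543 to 19528 FPKM in LinNegSca1Neg. Lists of satellite cell, tenocyte, Schwann cell and pericyte markers were highest in LinNegSca1Neg, with sums of 415 to 613, 2289 to 3780, 1447 to 2513 and 1682 to 2520 FPKM. A library held 10737 to 12517 genes at 1 FPKM or more. Read numbers behind the values are not stated, so no counting interval is printed.

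The synthases divided between the fractions: Has1 and Has2 were high in LinNeg and LinNegSca1Pos, and Has3 was highest in LinPos. Has1 (mm10 chr17:17843326-17855188) stood at 103, 92.5 and 136 FPKM in the LinNegSca1Pos libraries and at 1.11, 1.51, 0.848 and 1.35 FPKM in those of LinNegSca1Neg. The LinNeg libraries lay at 62.7, 58.5, 59.0 and 45.0 FPKM and the LinPos libraries at 1.86, 1.06, 2.19 and 1.15 FPKM. Whole had 0.0641 and 0.276 FPKM in replicates 1 and 2, while replicates 3 and 4 were listed at 0.001, the lowest value of the table. The order of the means was thus LinNegSca1Pos, LinNeg, LinPos, LinNegSca1Neg and Whole, and of these neighbours only LinPos and LinNegSca1Neg overlapped. The ratio of means between LinNegSca1Pos and LinNegSca1Neg was 91.3. Since LinNeg contains the Sca1+ cells, its height is no separate support for that pattern. In LinPos against LinNeg, Has1 was lower by 4.50 ± 0.17 (SE) on the log2(FPKM + 1) scale (limma adjusted p = 4.41e-13). For the same reason this difference and its p value are a description only. In bulk RNA, fewer cells of a type and less RNA per cell cannot be told apart, here or for any gene below.

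**Figure D1:**
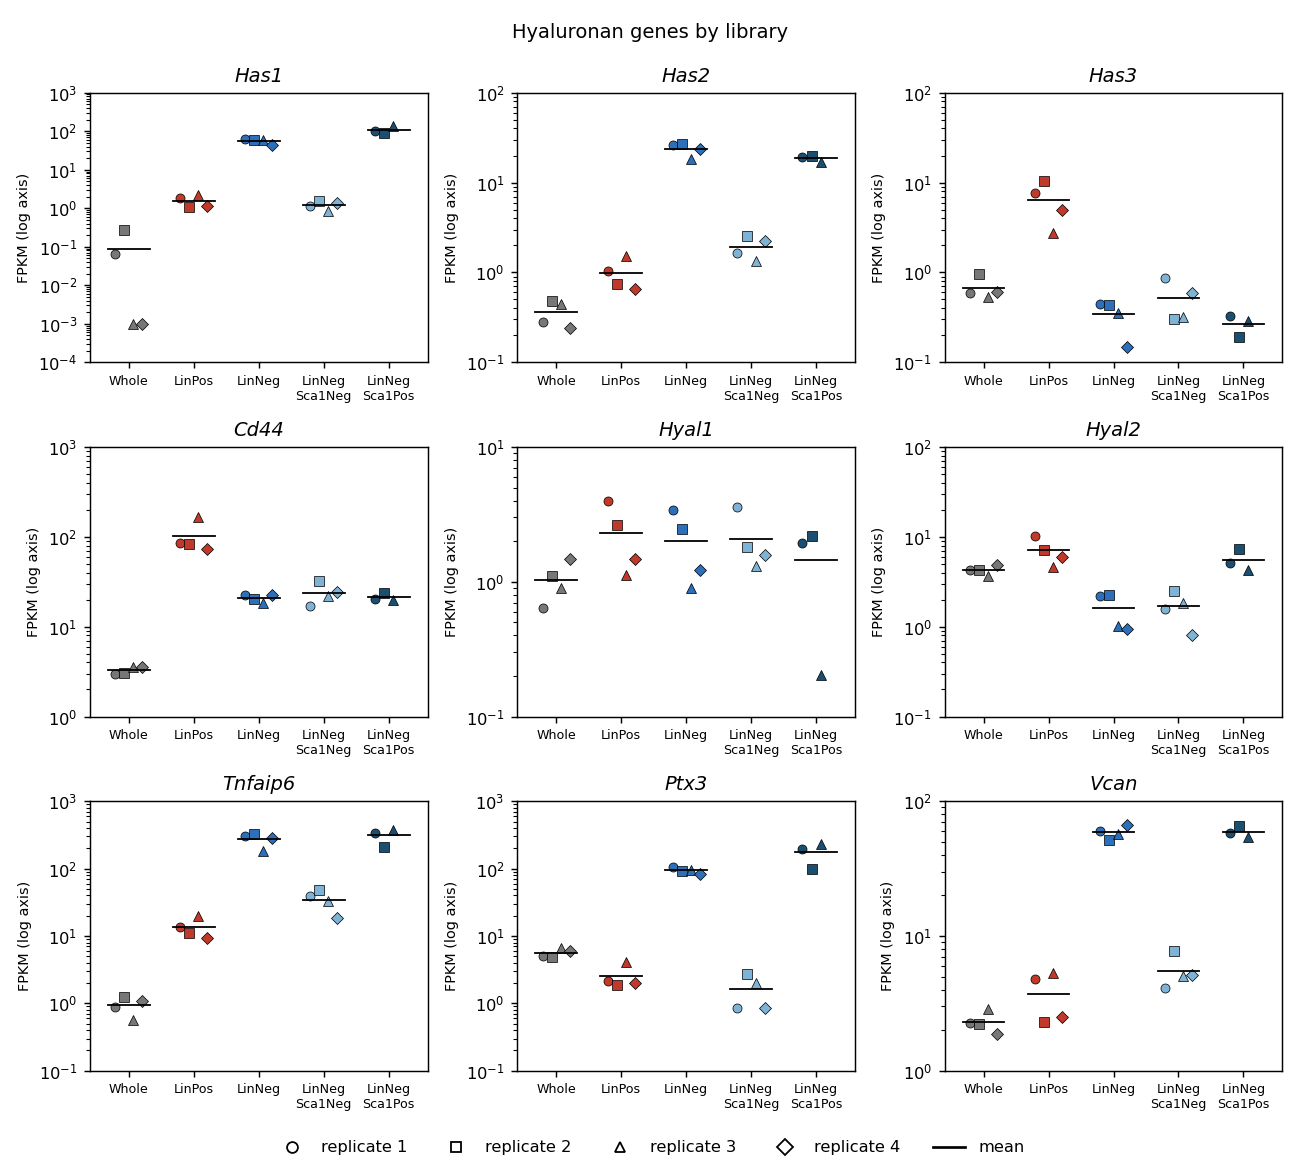
FPKM (log axis) of the 9 hyaluronan genes in each of 19 libraries, by group, with marker shapes for replicate numbers and a line at the group mean. Has1, Has2, Tnfaip6, Ptx3 and Vcan are high in LinNeg and LinNegSca1Pos, Has3 and Cd44 in LinPos, and the groups overlap in Hyal1.

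Has2 (chr15:56665627-56694546), the synthase that the mouse embryo needs to form its heart, stood at 26.4, 26.8, 18.4 and 23.6 FPKM in LinNeg and at 19.1, 19.6 and 17.1 FPKM in LinNegSca1Pos. These overlapping groups lay apart from LinNegSca1Neg (1.65, 2.53, 1.33 and 2.24 FPKM), LinPos (1.05, 0.742, 1.54 and 0.660 FPKM) and Whole (0.282, 0.481, 0.445 and 0.243 FPKM). Unlike Has1, Has2 had its highest mean in LinNeg and not in LinNegSca1Pos. LinPos was lower than LinNeg by 3.64 ± 0.17 on the log2 scale (limma adjusted p = 2.57e-12). LinNegSca1Neg was higher than LinPos by 0.56 ± 0.17 (limma adjusted p = 0.00824), with overlapping libraries, and fitting these groups alone with a replicate block gave an adjusted p of 0.0612. In replicates 3 and 4 alone it was 0.42 (limma adjusted p = 0.153). The antisense gene Has2os overlaps Has2 on the other strand, and it is not stated whether the counting used strand. The table's entry Has2as had 3.56 ± 2.54 FPKM in LinNeg, 6.82 ± 4.04 FPKM in LinNegSca1Pos and 0.742 ± 0.637 FPKM in LinNegSca1Neg.

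Has3 (chr8:106870242-106882902), the third synthase, ran the other way. Its LinPos libraries stood at 7.66, 10.4, 2.73 and 4.95 FPKM, all above every library of the other groups. Whole had 0.587, 0.963, 0.527 and 0.606 FPKM, LinNeg 0.440, 0.432, 0.355 and 0.147 FPKM, LinNegSca1Neg 0.865, 0.300, 0.323 and 0.587 FPKM, and LinNegSca1Pos 0.330, 0.193 and 0.288 FPKM. Among these 4 groups the neighbours in the order of means overlapped. Has3 was higher in LinPos than in LinNeg by 2.35 ± 0.24 on the log2 scale (limma adjusted p = 1.22e-07) and lower in LinNegSca1Neg than in LinPos by 2.19 ± 0.24 (limma adjusted p = 3.09e-07). It passed the filter of 1 FPKM in 3 libraries through LinPos alone, so that a tested Has3 had to be higher there. With no filter the limma adjusted p values were 1.52e-06 and 3.17e-06, and the first difference ran from 1.05 with a pseudocount of 5 to 3.78 with 0.1.

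FPKM are scaled to transcript length, so levels of the synthases can be set beside each other. Their summed level was 129 ± 21.2 FPKM in LinNegSca1Pos, 80.5 ± 9.26 in LinNeg, 9.0 ± 2.85 in LinPos, 3.66 ± 0.836 in LinNegSca1Neg and 1.12 ± 0.404 in Whole. Has1 made up 85.0 ± 3.23% of that sum in LinNegSca1Pos and 69.9 ± 4.43% in LinNeg, and Has2 most of the rest. In LinNegSca1Neg, Has2 was the largest share with 52.6 ± 5.32%, and Has1 had 33.0 ± 1.81%. Has3 made up 68.3 ± 18.3% in LinPos and 61.1 ± 7.75% in Whole. In the third LinPos library the Has3 share was 42.2%, against 72.4% to 85.3% in the other 3. That library also had the lowest sum over 6 endothelial genes of the 4, 479 FPKM against 1129 to 1335 FPKM, and the highest neutrophil sum, and the part of these cells in the level of Has3 was not tested. The leading synthase transcript was thus Has1 in LinNeg and LinNegSca1Pos, Has2 in LinNegSca1Neg and Has3 in LinPos and Whole, and the sum over LinNegSca1Neg libraries stayed below that of every LinPos library.

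**Figure D2:**
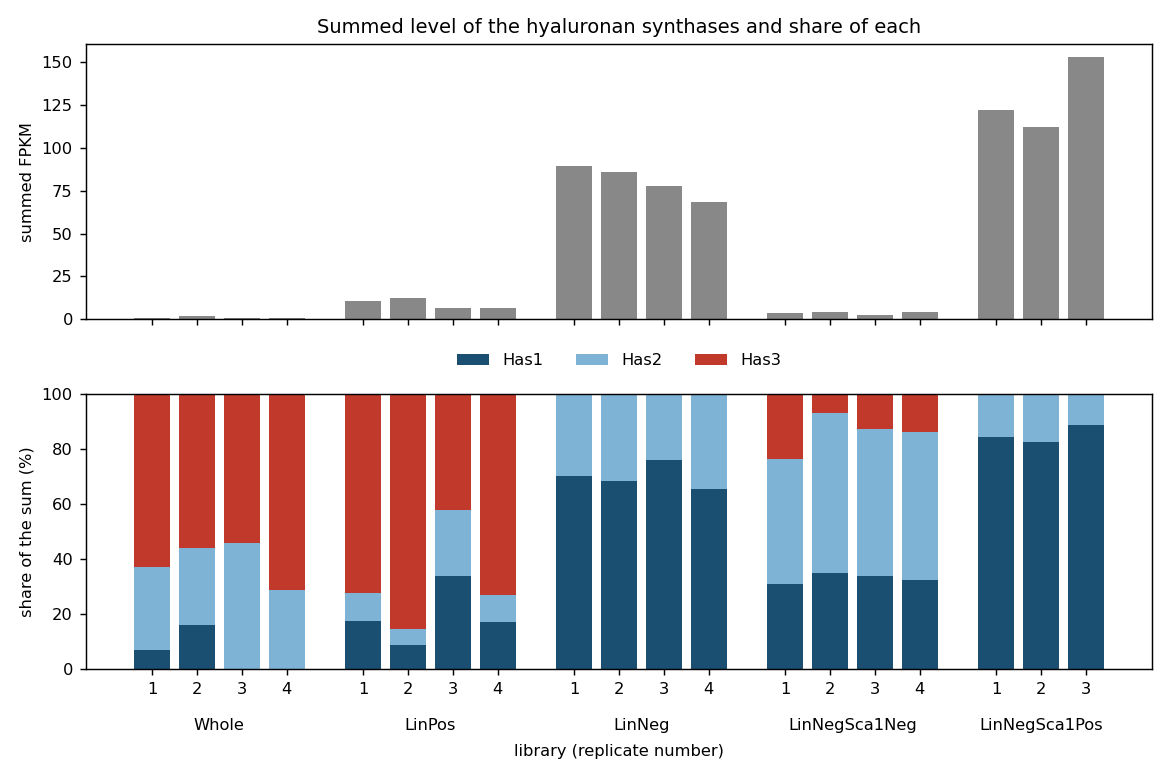
Upper bars give the summed FPKM of Has1, Has2 and Has3 in each library and lower bars the share of each gene in that sum (%). Has1 holds 82.4% to 88.6% of the sum in LinNegSca1Pos and 8.65% to 33.9% in LinPos.

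Cd44 (chr2:102811142-102901665), the main surface receptor for hyaluronan, was highest in LinPos, at 86.4, 84.2, 165 and 73.4 FPKM. LinNeg (22.4, 20.4, 18.3 and 22.5 FPKM), LinNegSca1Neg (17.1, 32.3, 21.7 and 24.2 FPKM) and LinNegSca1Pos (20.4, 23.7 and 19.9 FPKM) overlapped, and Whole was lowest at 2.95, 3.09, 3.52 and 3.58 FPKM. Unlike Has1 and Has2, the receptor overlapped between the Sca1 fractions, as Has3 did: the ratio of means between LinNegSca1Pos and LinNegSca1Neg was 0.895. Cd44 was higher in LinPos than in LinNeg by 2.16 ± 0.21 on the log2 scale (limma adjusted p = 6.84e-08) and lower in LinNegSca1Neg than in LinPos by 2.01 ± 0.21 (limma adjusted p = 1.72e-07). Leukocyte markers stood higher in LinPos too: the sum over 6 macrophage and monocyte genes was 3105 to 5380 FPKM there and 14.3 to 42.1 FPKM in LinNeg. The sum over 5 neutrophil genes was 58453 FPKM in the third LinPos library, in which Cd44 was highest, and 5132 to 10757 FPKM in the other 3. The part of these cells in the level of Cd44 was not tested.

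The highest value of either hyaluronidase in any library was 10.3 FPKM. Hyal1 (chr9:107576952-107580133), the lysosomal enzyme, stood at 4.00, 2.64, 1.13 and 1.48 FPKM in LinPos, 3.38, 2.45, 0.897 and 1.23 FPKM in LinNeg and 3.56, 1.82, 1.31 and 1.57 FPKM in LinNegSca1Neg. LinNegSca1Pos had 1.94, 2.20 and 0.204 FPKM and Whole 0.635, 1.10, 0.900 and 1.47 FPKM. All neighbours in the order of means overlapped. LinPos differed from LinNeg by 0.15 ± 0.34 on the log2 scale (limma adjusted p = 0.758), and Hyal1 was called in none of the 4 tested comparisons. In all of LinPos, LinNeg and LinNegSca1Neg, replicates 1 and 2 lay above replicates 3 and 4, with ratios of means of 2.55, 2.74 and 1.87. The labels name no batch for the replicate numbers. With replicates 1 and 2 of the sorted fractions set against all 4 Whole libraries, Hyal1 was higher than in Whole by 1.09 in LinPos (limma adjusted p = 0.0124) and by 0.96 in LinNeg (limma adjusted p = 0.0251), while over all replicates the limma adjusted p was 0.0983 and 0.203. In GENCODE, Hyal1 overlaps Hyal3 and Naa80 on the same strand, so reads may be shared between them. The shorter Hyal1 locus given above reaches into Naa80 but not into Hyal3, which begins at 107580818. Hyal3 was at most 0.512 FPKM in any LinNeg library. Naa80, listed under its older symbol Nat6, was at 5.57 ± 1.42 FPKM in LinNeg, 4.63 ± 0.486 in LinPos and 4.52 ± 0.505 in Whole, above the Hyal1 mean in each.

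Hyal2 (chr9:107569163-107572778), which is anchored at the cell surface, was higher in LinPos (10.3, 7.21, 4.67 and 6.04 FPKM), LinNegSca1Pos (5.13, 7.29 and 4.25 FPKM) and Whole (4.28, 4.31, 3.69 and 4.92 FPKM). It was lower in LinNeg (2.21, 2.26, 1.02 and 0.942 FPKM) and LinNegSca1Neg (1.59, 2.53, 1.81 and 0.815 FPKM), and neither of these overlapped the other 3. The LinNeg mean of 1.61 ± 0.723 FPKM lay at the level of LinNegSca1Neg (1.69 ± 0.705) although LinNeg holds the cells of both fractions. Hyal2 was higher in LinPos than in LinNeg by 1.62 ± 0.24 on the log2 scale (limma adjusted p = 1.42e-05) and lower in LinNegSca1Neg than in LinPos by 1.58 ± 0.24 (limma adjusted p = 1.83e-05). Replicates 1 and 2 stood above 3 and 4 for Hyal2 as well, by ratios of 1.64 in LinPos and 2.27 in LinNeg.

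Tnfaip6 and Ptx3, which modify and crosslink hyaluronan, had the highest means of the 9 genes in LinNeg and LinNegSca1Pos. Tnfaip6 (chr2:52038113-52056681) stood at 341, 211 and 379 FPKM in LinNegSca1Pos and 302, 321, 181 and 286 FPKM in LinNeg, which overlapped. LinNegSca1Neg had 38.7, 48.0, 33.2 and 18.6 FPKM, LinPos 13.8, 11.0, 19.6 and 9.32 FPKM and Whole 0.889, 1.23, 0.558 and 1.10 FPKM. Its mean ranked 227th of 23521 genes in LinNegSca1Pos and 10974th in Whole. LinPos was lower than LinNeg by 4.26 ± 0.28 on the log2 scale (limma adjusted p = 2.81e-10). LinNegSca1Neg was higher than LinPos by 1.28 ± 0.28 (limma adjusted p = 7.27e-04), where the libraries overlapped only between LinNegSca1Neg replicate 4 and LinPos replicate 3. In replicates 3 and 4 alone the difference was 0.83 (limma adjusted p = 0.0920).

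Ptx3 (chr3:66219887-66225806) stood at 196, 98.4 and 235 FPKM in LinNegSca1Pos and at 104, 93.5, 96.0 and 84.3 FPKM in LinNeg. All other groups were far lower, with 4.97, 4.94, 6.63 and 6.01 FPKM in Whole, 2.18, 1.87, 4.18 and 2.03 FPKM in LinPos and 0.865, 2.71, 2.02 and 0.860 FPKM in LinNegSca1Neg. It was the only member above LinPos and LinNegSca1Neg in Whole without overlap. The ratio of means between LinNegSca1Pos and LinNegSca1Neg was 109, the largest of the 9 genes. Ptx3 was lower in LinPos than in LinNeg by 4.78 ± 0.27 on the log2 scale (limma adjusted p = 2.88e-11), and LinNegSca1Neg against LinPos gave -0.47 ± 0.27 (limma adjusted p = 0.146). Ptx3 was chosen for its height in LinNegSca1Pos over LinNegSca1Neg, and LinNeg contains the Sca1+ cells. Both differences and their p values are therefore a description only. Ptx3 lies within Veph1, which is on the other strand.

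Vcan (chr13:89655310-89742512), the large proteoglycan versican, stood at 57.8, 65.3 and 54.7 FPKM in LinNegSca1Pos and 60.3, 51.3, 57.3 and 66.5 FPKM in LinNeg. LinNegSca1Neg had 4.11, 7.70, 5.08 and 5.17 FPKM, LinPos 4.79, 2.32, 5.29 and 2.53 FPKM and Whole 2.26, 2.23, 2.85 and 1.88 FPKM. The 2 high groups were at almost the same mean, 59.3 ± 5.42 and 58.9 ± 6.32 FPKM, and the 3 low groups overlapped from neighbour to neighbour. Vcan was lower in LinPos than in LinNeg by 3.71 ± 0.20 on the log2 scale (limma adjusted p = 2.25e-11). LinNegSca1Neg against LinPos gave 0.49 ± 0.20 (limma adjusted p = 0.0476), a call that was lost with a replicate block (adjusted p = 0.0550, and 0.167 when these groups were fitted alone). It was also lost on leaving out any of 16 of the 19 libraries in turn.

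Across LinPos against LinNeg, 5 of the 9 members were called lower (Has1, Has2, Tnfaip6, Ptx3 and Vcan) and 3 higher (Cd44, Hyal2 and Has3, the last of which the filter had let through only for its LinPos level). Of all tested genes, 25.8% were called lower and 25.3% higher in that comparison. The median log2 difference was -3.64 over the members and 0.0029 over all tested genes. LinNeg contains the Sca1+ cells whose Has1 and Ptx3 levels formed the set, so these counts and this median are a description only. In LinNegSca1Neg against LinPos, 6 members were called, against 54.5% of all genes. Has2, Tnfaip6 and Vcan were called higher, against 31.5% of all genes. Has3, Cd44 and Hyal2 were called lower, against 3234 of all 14043 tested genes. The filter had let Has3 through only for its LinPos level, which largely fixed its direction here too. Has1 and Ptx3 were not called between LinNegSca1Neg and LinPos: Has1 differed by -0.20 ± 0.17 (limma adjusted p = 0.348). LinNegSca1Neg was the low side of the contrast in which Has1 and Ptx3 were seen, so their values and the counts here are a description only. The 4 tested comparisons share libraries, LinPos in 3, LinNeg in 2 and Whole in 2, so their members' values stand side by side and are not independent.

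**Figure D3:**
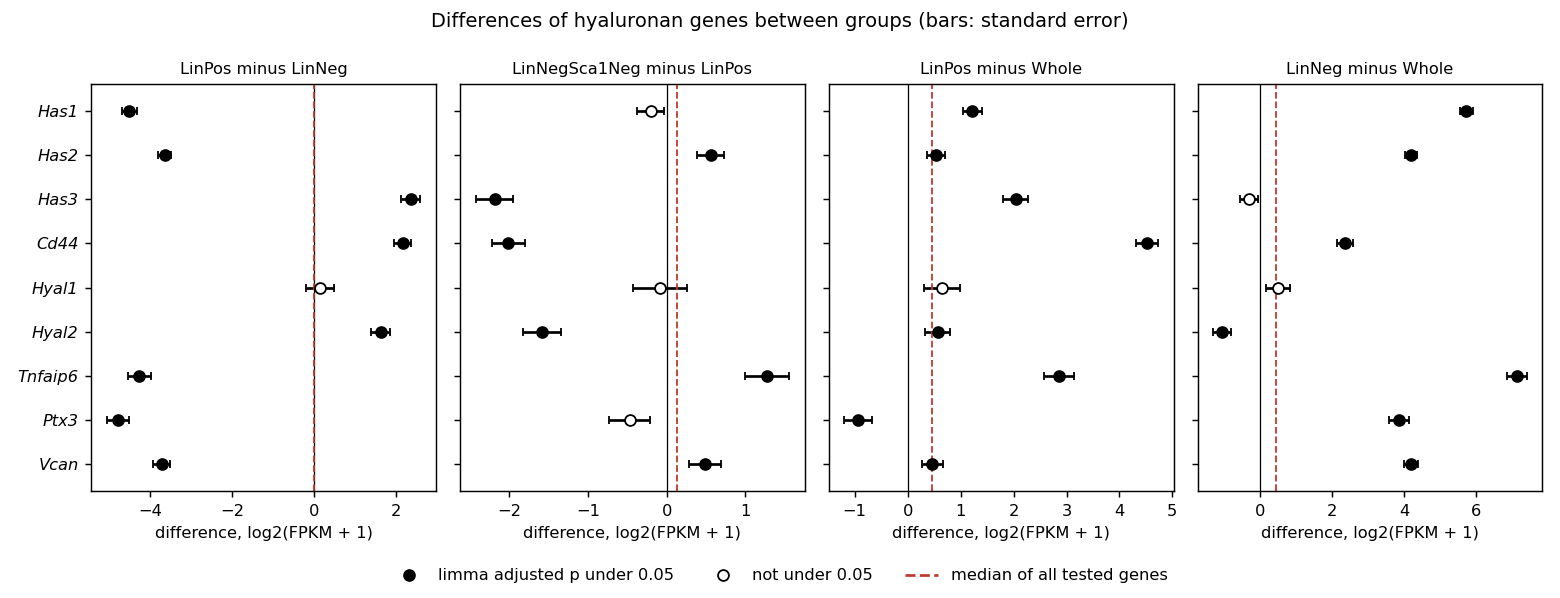
Difference of each member on the log2(FPKM + 1) scale with its standard error, in the 4 tested comparisons, with filled points for a limma adjusted p under 0.05 and a dashed line at the median of all tested genes. In LinPos minus LinNeg, Has1 lies at -4.50 and Ptx3 at -4.78, and Has3 at 2.35.

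Against Whole, most members were higher in the sorted groups, as were most genes. In LinNeg against Whole, 6 members were called higher and 1 lower, against 47.5% and 21.8% of all genes. As LinNeg contains the Sca1+ cells that formed the set, these counts and the LinNeg differences of Has1 and Ptx3 too are a description only. The higher members were Tnfaip6 (7.12 ± 0.28 on the log2 scale), Has1 (5.72 ± 0.17), Vcan (4.18 ± 0.20), Has2 (4.17 ± 0.17), Ptx3 (3.85 ± 0.27) and Cd44 (2.35 ± 0.21), and their largest limma adjusted p was 1.65e-08. Hyal2 was lower by 1.06 ± 0.24 (limma adjusted p = 7.79e-04). In LinPos against Whole, 7 members were called higher and 1 lower, against 48.8% and 22.9% of all genes. Cd44 was higher by 4.52 ± 0.21, Tnfaip6 by 2.86 ± 0.28, Has3 by 2.04 ± 0.24 and Has1 by 1.22 ± 0.17. Has3 had passed the filter through LinPos alone, which largely fixed its direction in this comparison. The size of the Has1 difference was set by the pseudocount, with 0.36 at a pseudocount of 5 and 3.33 at 0.1 in LinPos, and 3.58 and 8.47 in LinNeg. Ptx3 was lower in LinPos by 0.93 ± 0.27 (limma adjusted p = 0.00427). No fold is given for Has1 against Whole, where 2 of 4 libraries were at the lowest listed value. Has2 (0.54 ± 0.17), Hyal2 (0.56 ± 0.24) and Vcan (0.47 ± 0.20) lay near the median of all genes, 0.45.

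Those smaller differences depended on the scaling. Median-of-ratios scaling moved the median of all genes to 0.045 in LinPos against Whole, and the share of higher genes among the calls from 68.0% to 52.1%. In LinNeg against Whole it moved the median from 0.43 to -0.0055 and that share from 68.6% to 48.2%. The limma adjusted p in LinPos against Whole then became 0.0651 for Has2, 0.868 for Hyal2 and 0.955 for Vcan, and under quantile normalization Hyal2 (-0.047) and Vcan (-0.14) changed direction. The calls of Has1, Cd44 and Tnfaip6 held under both scalings. That of Has3 held as well, but the filter had let it through only for its LinPos level. The groups also differed in other measured ways: the sum over 14 immediate early and stress genes was 99.6 to 113 FPKM in Whole and 4566 to 7970 FPKM over the sorted groups. A list of 6 inflammatory cytokines and chemokines summed to 2.11 to 3.50 FPKM in Whole and 823 to 1667 FPKM in LinPos. It summed to 593 to 803 FPKM in LinNeg, 135 to 280 FPKM in LinNegSca1Neg and 577 to 883 FPKM in LinNegSca1Pos. The part of such responses in the levels of Tnfaip6, Ptx3 and the synthases was not tested, and handling during the sort cannot be told apart from the group in any comparison with Whole.

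Between the Sca1 fractions, 6 of the 9 members did not overlap, all of them higher in LinNegSca1Pos: Has1, Has2, Hyal2, Tnfaip6, Ptx3 and Vcan. Of all tested genes, 54.7% did not overlap in this comparison, and 22.4% were called higher and 32.1% lower. The ratios of means were 9.59 for Has2, 3.30 for Hyal2, 8.96 for Tnfaip6 and 10.8 for Vcan. Against LinPos, 5 members were higher in LinNegSca1Pos without overlap and Has3 and Cd44 were lower, with ratios of means of 0.0419 and 0.209. There 58.1% of all genes did not overlap, and 29.0% were called higher and 30.9% lower. Nothing is read from these counts, since the rule that formed the set used the first of these contrasts.

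LinNeg is the parent of both Sca1 fractions, and its mean can be placed between them, with 0 at LinNegSca1Neg and 1 at LinNegSca1Pos. Has1 (0.505) and Ptx3 (0.531) lay near the middle, Tnfaip6 at 0.862 and Vcan at 0.992. Has2 lay beyond the Sca1+ fraction at 1.31, and Hyal2 just below the Sca1- fraction at -0.020. For 221 other genes at least 8-fold higher in LinNegSca1Pos and at 10 FPKM or more there, the median place was 0.517 with quartiles of 0.293 and 0.753. Hyal2, with a ratio of 3.30 and 5.56 FPKM, met neither condition, so these genes are not a like group for it. Ly6a itself lay at 0.696. On leaving out each of the 11 libraries of these groups in turn, Has1 ran from 0.467 to 0.572, Ptx3 from 0.434 to 0.638 and Tnfaip6 from 0.731 to 0.984. Without LinNegSca1Pos replicate 2, Tnfaip6 thus fell inside the quartiles. Vcan ran from 0.945 to 1.05, Has2 from 1.25 to 1.42 and Hyal2 from -0.10 to 0.049. These places rest on the contrast that chose the set, and LinNeg and LinNegSca1Pos overlapped for Has2, Tnfaip6, Ptx3 and Vcan, so they are a description only.

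**Figure D4:**
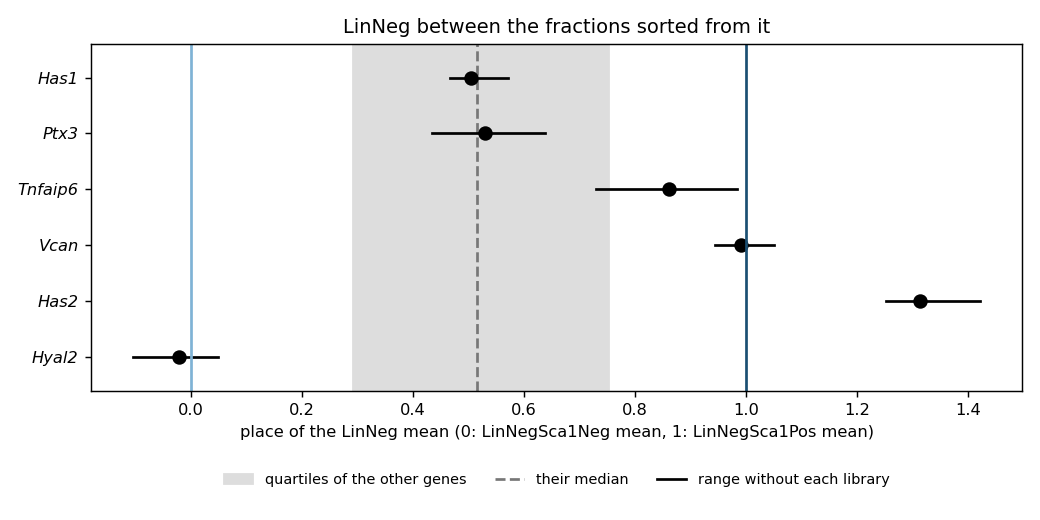
Place of the LinNeg mean between the mean of LinNegSca1Neg (0) and of LinNegSca1Pos (1) for the 6 members that did not overlap between these fractions, with the median and quartiles of 221 other genes shaded and lines for the range on leaving out each library. Has1 and Ptx3 lie at 0.505 and 0.531, and Has2 at 1.31. Hyal2 does not meet the conditions by which the 221 genes were taken.

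The wider pathway was described with 45 other hyaluronan genes, of which 28 passed the filter. Their counts stand beside the shares of all tested genes given above for each comparison. The 7 enzymes that make the nucleotide sugars were all called lower in LinPos than in LinNeg, against the 25.8% of all genes above. Ugdh, which makes UDP-glucuronic acid, was at 22.8 ± 3.42 FPKM in LinPos and 228 ± 6.58 FPKM in LinNeg (-3.28 ± 0.15 on the log2 scale, limma adjusted p = 2.00e-12). Gfpt2, which controls entry of glucose carbon into amino sugars, was at 7.63 ± 2.23 and 244 ± 43.9 FPKM (-4.84 ± 0.18, limma adjusted p = 2.70e-13). In LinNegSca1Pos against LinNegSca1Neg 4 of the 7 were called higher, against 22.4% of all genes. Ugdh was at 196 ± 37.8 and 26.4 ± 4.85 FPKM (2.85 ± 0.16, limma adjusted p = 1.25e-10) and Gfpt2 at 198 ± 9.25 and 15.8 ± 2.95 FPKM. In LinNegSca1Pos against LinPos all 7 were called higher, against 29.0% of all genes. In LinNegSca1Neg against LinPos 3 were called higher, against 31.5%. Of these, Ugp2, which makes UDP-glucose, was higher in LinNegSca1Neg than in LinPos by 1.24 ± 0.27 (limma adjusted p = 7.87e-04). Ugp2 was also the exception against Whole, at 543 ± 169 FPKM there and 66.9 ± 20.4 FPKM in LinNeg. The other 6 were called higher in LinNeg, against 47.5% of all genes. In LinPos against Whole, 4 were called higher and Ugp2 lower, against 48.8% and 22.9% of all genes.

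**Figure D5:**
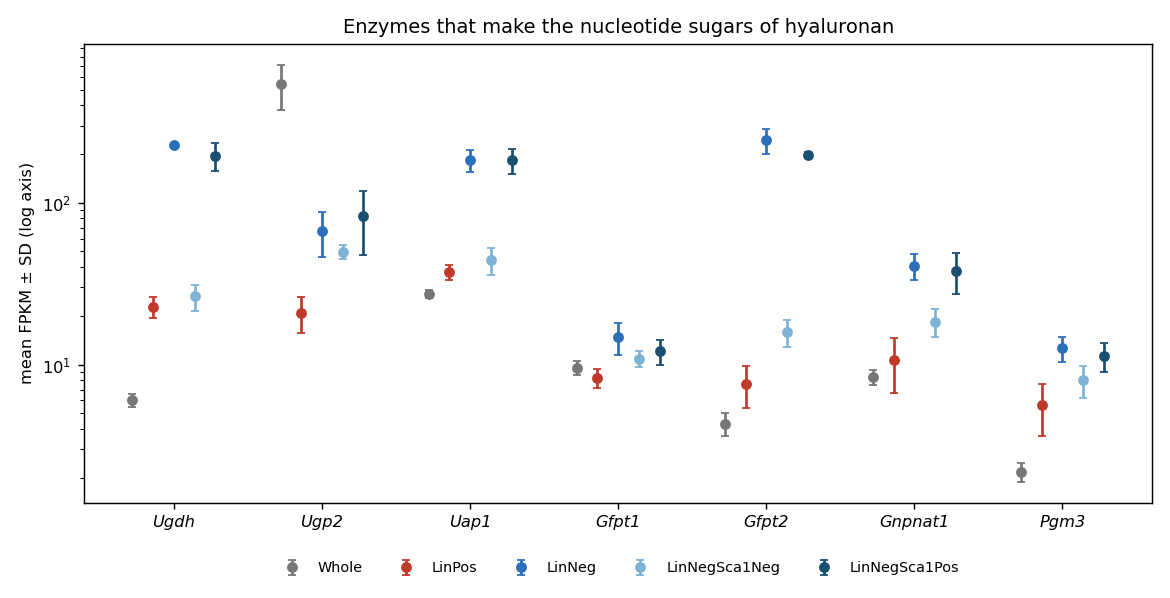
Mean FPKM ± SD (log axis) of the 7 enzymes that make the nucleotide sugars of hyaluronan, by group (n = 4, and n = 3 in LinNegSca1Pos). Ugdh, Uap1 and Gfpt2 stand highest in LinNeg and LinNegSca1Pos, as Has1 and Has2 do, and Ugp2 in Whole.

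Of the 6 other receptors tested, 4 were called higher in LinPos than in LinNeg, as Cd44 was, and 1 lower, against 25.3% and 25.8% of all genes. Lyve1, the receptor of lymphatic endothelium and some macrophages, was at 107 ± 66.8 FPKM in LinPos and 0.428 ± 0.187 FPKM in LinNeg (6.08 ± 0.31 on the log2 scale, limma adjusted p = 1.11e-11). Stab1, a scavenger receptor, was at 26.2 ± 14.3 and 0.142 ± 0.0746 FPKM, and Tlr2, a toll-like receptor, at 40.7 ± 9.84 and 7.25 ± 1.62 FPKM. Between the Sca1 fractions, Lyve1 gave -0.42 ± 0.34 (limma adjusted p = 0.302). Without LinNegSca1Pos replicate 1 it was -0.85 (limma adjusted p = 0.0377), and that library had a macrophage and monocyte sum of 87.1 FPKM, against 6.13 and 20.3 FPKM in the other 2. The part of these cells was not tested. In this comparison 3 receptors were called higher in LinNegSca1Pos, against 22.4% of all genes. Among these Layn, the membrane protein layilin, was at 9.47 ± 4.98 FPKM there and 1.41 ± 0.562 FPKM in LinNegSca1Neg (2.04 ± 0.24, limma adjusted p = 1.29e-06). All 6 were called higher in LinPos than in Whole, against 48.8% of all genes. In LinNegSca1Neg 5 were called lower than in LinPos, against 3234 of all 14043 tested genes. In LinNegSca1Pos 1 was called higher and 3 lower than in LinPos, against 29.0% and 30.9% of all genes. In LinNeg against Whole 4 were called higher and 2 lower, against 47.5% and 21.8% of all genes. Lyve1 was lower there by 1.75 ± 0.31 (limma adjusted p = 7.30e-05).

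Of the 3 other breakdown genes described, 2 were called higher in LinPos than in LinNeg (Cemip2 and Gusb), against 25.3% of all genes. Lower in LinNegSca1Neg than in LinPos were 2 (Hexa and Gusb), against 3234 of all 14043 tested genes. Cemip2, a cell-surface hyaluronidase listed under its older symbol Tmem2, was at 6.65 ± 1.24 FPKM in LinPos, 7.71 ± 1.13 in LinNegSca1Neg and 1.63 ± 1.59 in LinNegSca1Pos. Its call in LinPos against LinNeg (0.84 ± 0.25) was lost with a pseudocount of 0.1 (limma adjusted p = 0.0591) and in replicates 3 and 4 alone (0.62, limma adjusted p = 0.234). It was lower in LinNegSca1Pos than in LinNegSca1Neg by 1.90 ± 0.27 on the log2 scale (limma adjusted p = 1.45e-05), while the mean of Hyal2 was higher there. In the same comparison the lysosomal enzymes Hexa and Gusb were called higher. All 3 were called higher in LinPos than in Whole, against 48.8% of all genes, and 1, Gusb, in LinNeg than in Whole, against 47.5%. The call of Cemip2 in LinPos against Whole (0.62 ± 0.25, limma adjusted p = 0.0371) did not hold under median-of-ratios scaling (0.11, limma adjusted p = 0.715) or quantile normalization (-0.0059). The call was lost with no filter (limma adjusted p = 0.0691), with a pseudocount of 0.1 (0.133) and with LinPos replicates 3 and 4 against all 4 Whole libraries (0.299). It was also lost without Whole replicate 1, 2 or 3 or LinPos replicate 1 or 2 (limma adjusted p of 0.0652 to 0.0933). In LinNeg against Whole, Cemip2 was called lower under both scalings (limma adjusted p = 0.0114 and 0.00439). Of the breakdown genes only Cemip2 was called in LinNegSca1Pos against LinPos, where it was lower. Hyal3, Hyal4, Hyal5, Hyal6, Spam1 and Cemip fell under the filter.

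Of 8 tested matrix partners, Acan, Hapln1, Hapln2 and Itih4 passed the filter only through LinNegSca1Neg, which largely fixed their direction there, and they are left out of the counts. Of the other 4 (Itih2, Itih5, Habp4 and C1qbp), 3 were called lower in LinPos than in LinNeg, against 25.8% of all genes. All 4 were called higher in LinNegSca1Neg than in LinPos, against 31.5%. Itih5, a relative of the heavy chains that Tnfaip6 moves, was at 77.6 ± 20.0 FPKM in LinNeg, 69.4 ± 16.3 in LinNegSca1Pos, 41.1 ± 10.1 in LinNegSca1Neg and 6.57 ± 1.92 in LinPos. It was lower in LinPos than in LinNeg by 3.38 ± 0.22 on the log2 scale (limma adjusted p = 2.45e-10). C1qbp, a mitochondrial protein that also binds hyaluronan, was lower in LinNegSca1Pos than in LinNegSca1Neg by 1.01 ± 0.30 (limma adjusted p = 0.00874). There Itih5 was called higher, by 0.74 (limma adjusted p = 0.0132). In LinNegSca1Pos against LinPos 3 of the 4 were called higher, against 29.0% of all genes. Set beside Whole, 3 were lower in LinPos, against 22.9%, and 2 were higher and 2 lower in LinNeg, against 47.5% and 21.8%. Of the genes lower in LinNeg, C1qbp was not called without Whole replicate 3 (limma adjusted p = 0.0615) or without LinNeg replicate 1 (0.0977).

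A list for the link between Cd44 and the cytoskeleton held 4 genes, Ezr, Rdx, Msn and Nf2, whose roles in that link may differ. Ezr and Msn were called higher in LinPos than in LinNeg, as Cd44 and 25.3% of all genes were. Rdx (-0.029 ± 0.13) and Nf2 (0.0072 ± 0.15) were not called. Ezr, which encodes ezrin, was at 7.95 ± 2.54 FPKM in LinNegSca1Pos and 20.6 ± 7.13 FPKM in LinNegSca1Neg (-1.25 ± 0.35 on the log2 scale, limma adjusted p = 0.00537). In that comparison 3 of the 4 were called lower, against 32.1% of all genes, and 3 in LinNegSca1Pos against LinPos, against 30.9%. In LinNegSca1Neg against LinPos 2 were called lower, against 3234 of all 14043 tested genes. Against Whole, 2 were called higher and 2 lower in LinPos, against 48.8% and 22.9% of all genes. The same counts held in LinNeg, against 47.5% and 21.8%. Ezr was higher in LinPos than in Whole by 3.97 ± 0.32 (limma adjusted p = 2.82e-09).

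Over all 19 libraries the genes most like Has1 by Pearson's r on the log2 scale were Col14a1 (0.991), Ces2g (0.988), C3 (0.987), Bmp7 (0.983) and Fgf10 (0.982). For Has2 they were Gfpt2 (0.989), Gabra3 (0.987) and Flrt2 (0.986), and for Vcan Gfpt2 (0.986), Sbsn (0.985) and C1ra (0.981). Cd44 was most like Iqgap1 (0.980), Msn (0.977) and Capza1 (0.975). The libraries fall into clusters by group, so these values describe a shared pattern over groups and carry no test. The precursor enzyme Gfpt2 stood among the nearest of both Has2 and Vcan, and the Cd44 linker Msn among those of Cd44.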

How the data were processed

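Poly(A) RNA was sequenced from 19 libraries of sorted or unsorted hindlimb muscle cells with a stranded kit, per the labels' protocols. The deposited values are FPKM per gene. The submitters' processing notes name bcl2fastq, TopHat2, Bowtie2, Cufflinks and mm10, without versions or roles. Of 23846 entries, 325 with status words were left out, and 4 columns matching no sample were not used. Since FPKM hold no counts, models for counts were not applied. Deposited FPKM were taken as log2(FPKM + 1), a scale on which low genes change less than in FPKM. The 14043 genes that reached 1 FPKM in 3 or more libraries were tested with limma 3.58.1 (R 4.3.3; 1 fit of 5 groups, 14 residual degrees of freedom, variance trend, two-sided), with Benjamini-Hochberg adjustment over all tested genes and a threshold of 0.05. The fit was checked on simulated data with independent noise in each library. That check cannot show how the correlations between libraries of equal number, given below, affect the p values. Members in LinNegSca1Pos comparisons were not tested. The members and all lists were chosen with earlier results of these data known. Besides the members, Lyve1, Ugdh and Cemip2 were named, up to 3 called pathway genes with the largest difference in each direction and at least 5 FPKM, and the nearest genes by correlation. Hexa, Gusb, Acan, Hapln1, Hapln2, Itih2, Itih4, Habp4, Layn, Rdx, Nf2 and Msn were named after their values were seen where this rule did not take them, and some genes that it takes are given only in counts. One further gene is not reported here.

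For the replicate numbers, deviations from the group mean were correlated over genes between libraries of equal number, at 0.44 to 0.70 in LinPos with LinNeg and at 0.36 to 0.67 in LinNegSca1Neg with LinPos, and not over 0.1 in every pair of the other comparisons. The labels do not say what the numbers mark. The main fit held no term for them. With a replicate block in LinPos and LinNeg alone, the limma adjusted p of Has1 between these groups was 1.72e-06. Settings varied were the pseudocount (0.1 and 5), the filter (none or 5 FPKM), the scaling (median-of-ratios or quantile) and the fit (compared groups, no trend, replicate block, replicates 1 and 2 or 3 and 4 alone or with a term for them, and each library left out). The choice of replicates and the term for them applied to LinPos, LinNeg and LinNegSca1Neg, and all Whole and LinNegSca1Pos libraries were kept. Python 3.11.15, pandas 2.3.3 and matplotlib 3.10.9 were used, with GENCODE M21 and RefSeq for annotation and promoters.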

Additional observations from a re-analysis of the deposited data

Results flagged for a closer look

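In 2 of 36 groups of 4 libraries, 1 library lay far from the other 3, and chance alone gives about 1 in 20. Cd44 in LinPos was 165 FPKM in replicate 3, with a gap to the nearest of the others that was 0.857 of the range, above Dixon's critical value. Ptx3 in LinPos was 4.18 FPKM in the same library, with a gap of 0.869 of the range. The sum over 5 neutrophil genes was highest in this library as well, at 58453 FPKM, and its part in either value was not tested.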

How the results depend on the processing

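In LinPos against LinNeg, 7 of 9 members kept direction and call under all 32 alternatives and Has3 under the 31 in which it was tested, a filter of 5 FPKM in 3 libraries leaving it out. Hyal1 (not called) ranged from -0.079 to 0.36 on leaving out each library. In LinNegSca1Neg against LinPos the count of members called higher (3) was 1 with a pseudocount of 5, with quantile normalization and with the replicate block in the paired groups alone, 0 in replicates 3 and 4 alone, and 2 to 3 without each library. Members called lower there numbered 3 to 4, Ptx3 being called without LinNegSca1Neg replicate 2 (limma adjusted p = 0.0474). Hyal1 was 0.085 in replicates 3 and 4 alone and -0.29 to 0.14 without each library. In LinPos against Whole, 4 members were called higher under median-of-ratios scaling and quantile normalization and 5 to 7 without each library. With LinPos replicates 3 and 4 set against all 4 Whole libraries, 0 were called lower, and Ptx3 had a limma adjusted p of 0.0582. The calls of Vcan and Hyal2 were lost on leaving out any of 14 and 8 libraries, and Hyal1 was called without LinPos replicate 3 (limma adjusted p = 0.0476). Under quantile normalization Hyal2 was -0.047, Vcan -0.14 and Cemip2 -0.0059. In LinNeg against Whole, 2 members were called lower under both scalings, in the fit of the compared groups and with the replicate block there, Has3 joining Hyal2, and 4899 genes in all were called lower under median-of-ratios scaling. Hyal1 was -0.035 under quantile normalization. Of the untested differences, LinNegSca1Pos minus LinNegSca1Neg gave 0.00029 for Cd44 under median-of-ratios scaling, 0.16 for Has3 under quantile normalization, and without each library -0.26 to 0.030 for Cd44 and -0.65 to 0.053 for Hyal1. All 3 LinNegSca1Pos libraries minus LinPos replicates 3 and 4 gave 0.028 for Hyal2. The place of the LinNeg mean for Hyal2 was -0.10 to 0.049 without each library, an alternative chosen after seeing the data. The causes were not tested. The replicate block in the fit of all groups changed the calls of Vcan in LinNegSca1Neg against LinPos and in LinPos against Whole (limma adjusted p = 0.0550 in both), and of Hyal1 in LinPos against Whole (0.0236). Members near 1 FPKM are limited by depth, which is not stated.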
